A study of Mus musculus with 2 samples.

Results

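The enzymes described here are the liver enzymes outside the cytochrome P450 superfamily that modify drugs, steroids and aldehydes. They were chosen by gene name, and not by their values, though with earlier results of these data known. The rule took the listed genes whose symbol opens with Ugt, Ces, Fmo, Aldh, Adh, Aox or Akr followed by the family number. Akr1d1 and Akr1c6, which act on steroids and bile acids, were set aside, which left 49 genes of the 8551 in the deposited table. They comprised 11 Ugt, 5 Ces, 3 Fmo, 13 Aldh, 4 Adh, 2 Aox and 11 Akr genes. The rule reads the deposited symbols, so 5 carboxylesterase genes listed under older symbols are no members, and their values are given beside those of the Ces genes.

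Liver poly(A) RNA of male C57BL/6 wild type mice (normal) and of male db/db mice labelled type 2 diabetic with the same C57BL/6 background (diabetic) was measured by sequencing of digital gene expression tags. The mice of both groups were 9 weeks old, had free access to chow and were sacrificed about 3 h into the light cycle. The db allele disrupts the leptin receptor, so obesity and diabetes are present together in this model. The mice came from 2 suppliers, and which supplier provided which group is not given in the sources used here. Whether the RNA of several mice was pooled is also not given. There was 1 library per group, so no difference below has a replicate check, and supplier, mouse and genotype cannot be told apart.

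Drugs and many lipids leave the liver in steps. Carboxylesterases (Ces) split esters and amides. Flavin monooxygenases (Fmo) oxidise nitrogen and sulfur atoms, and aldehyde oxidases (Aox) oxidise aldehydes and nitrogen-containing rings with a molybdenum cofactor. Alcohol dehydrogenases (Adh) turn alcohols into aldehydes, aldehyde dehydrogenases (Aldh) turn aldehydes into acids, and aldo-keto reductases (Akr) turn aldehydes and ketones back into alcohols. UDP-glucuronosyltransferases (Ugt) attach a sugar, most often glucuronic acid, which makes the product soluble in bile and urine. Several of these enzymes also serve normal metabolism, such as retinoic acid synthesis, amino acid breakdown and triacylglycerol turnover.

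In the tag method, cDNA is cut by DpnII at the sequence GATC and the tag next to the cut nearest the 3′ end of a transcript is counted. Each transcript is thus read at 1 site, and the values are not divided by gene length. Since many of these enzymes are close relatives, the tag predicted for each gene from GENCODE M21 transcripts (GRCm38) shows which of them can be counted apart. A tag of 20 bases was assumed, since the tag length is not given in the sources used here. All 49 genes had a GATC site, at a median of 208 bases from the 3′ end. The predicted tag of 44 genes was in no transcript of another gene, and that of 37 genes was at least 2 mismatches away from every other gene. The pairs on which results turn are shown here 5′ to 3′, with the DpnII site in capitals.
Ugt2b5: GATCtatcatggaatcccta
Ugt2b36: GATCcatcatggaatcccta
Ugt2b37: GATCcaactgggatttggag
Ugt2b38: GATCcattttcaaaaatctc
Ugt2a1 and Ugt2a2: GATCtgctcaatgctctgag
Aldh1a1: GATCaagagagcaaacaata
Aldh1a7: GATCaagagagcaaacaaca
Akr1c12: GATCagtcttggttgcttag
Akr1c13: GATCtcaaagaaatggaata
Counted from 1 at the 5′ end, the tags of Ugt2b5 and Ugt2b36 differ by T5C alone, and those of Aldh1a1 and Aldh1a7 by T19C alone. Ugt2a1 and Ugt2a2 have the same predicted tag. The predicted tags of Ugt2b5 and Ugt2b37 also occur in transcripts of Ugt2b38, and that of Akr1b10 occurs in Akr1b3 and Akr1b7. How the authors counted such tags is not given in the sources used here, so the values of these genes are uncertain where the counting could split them. The predicted tag of Ugt2b38 was in no other gene.

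The deposited unit is TPM, which here means tags of a gene per 1000000 clean tags of the library. The normal library had 10278531 clean tags and the diabetic library 13508232, so 1 read stood for 0.0973 and 0.0740 TPM. A count of 0 allows a level of up to 3 reads, or 0.292 TPM in normal and 0.222 TPM in diabetic liver. Ratios are diabetic over normal on the log2 scale of TPM, with 95% Clopper-Pearson intervals from the reads, which cover counting error only. A gene is called higher or lower when it differed at least 1.5-fold with a false discovery rate (FDR) under 0.001 in an exact binomial test on the reads, adjusted over the 8551 genes. This test compares 2 libraries and not the conditions. Listed genes took 37.1% of the normal and 44.4% of the diabetic clean tags. The median log2 ratio of all listed genes was 0.25, and scaling by trimmed mean of M values (TMM) lowers each log2 ratio by that amount. In all, 2655 genes were called, and 73.6% of them were higher, against 52.6% under TMM scaling.

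Hepatocyte markers were present in both libraries, with Alb (albumin) at 6801 TPM in normal and 6912 TPM in diabetic liver. Of 5 listed hepatocyte markers, 2 were called lower and 0 higher, and their sum was 9722 TPM in normal and 8878 TPM in diabetic liver. The 2 were Apob, at 804 and 147 TPM, and Hnf4a, at 96.8 and 46.2 TPM, in the same order. Of the 5 log2 ratios, 4 were below 0. The 4 listed Kupffer cell markers summed to 264 and 125 TPM, the 5 endothelial markers to 55.6 and 61.6 TPM, the 5 stellate cell markers to 154 and 190.2 TPM and the 3 cholangiocyte markers to 61.5 and 107 TPM, in the same order. Single genes held most of some sums. Of the Kupffer cell markers, C1qa was at 176 and 50.7 TPM and Csf1r at 21.7 and 10.1 TPM, but Cd5l was at 64.7 and 62.9 TPM. Of the cholangiocyte markers, Spp1 was at 57.2 and 103 TPM, but Epcam was at 3.21 and 3.04 TPM and Krt7 at 1.07 and 1.18 TPM. Among the stellate cell markers, 4 log2 ratios were above 0 and Reln was called lower. Of 4 exocrine pancreas markers, 0 were listed. The part of these differences in the results below was not tested, and in whole liver fewer cells of a type and less RNA per cell cannot be told apart. Reads of the Y-linked gene Eif2s3y, 118 in normal and 246 in diabetic liver, were present in both libraries labelled male.

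A log2 ratio above 0 was found in 38 of the 49 genes and in 5289 of the 8551 listed genes. Among listed genes averaging 10 TPM or more, it was found in 2435 of 3673. Under TMM scaling, 32 of the 49 genes and 4276 of the 8551 were above 0. Of the 49 genes, 26 were called higher, 3 were called lower and 20 were not called. Over all listed genes, 22.9% were called higher and 8.19% lower. The 49 genes were also far more abundant than the typical gene, with a median of 107.9 TPM averaged over both libraries against 7.76 TPM for all listed genes, and the test reaches its threshold more easily in abundant genes. Among the 3673 listed genes that averaged 10 TPM or more, 34.6% were called higher and 11.4% lower. Of the 38 enzyme genes at that level, 23 were called higher and 1 was called lower. Under TMM scaling, 21 of the 49 were called higher and 4 lower, where 14.9% and 13.4% of all listed genes were called. The median log2 ratio of the enzymes was 0.83, and 0.58 under TMM scaling, beside 0.25 for all listed genes and 0.31 for those averaging 10 TPM or more. A scatter of both libraries shows where the enzymes lie among all genes.

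**Figure D1:**
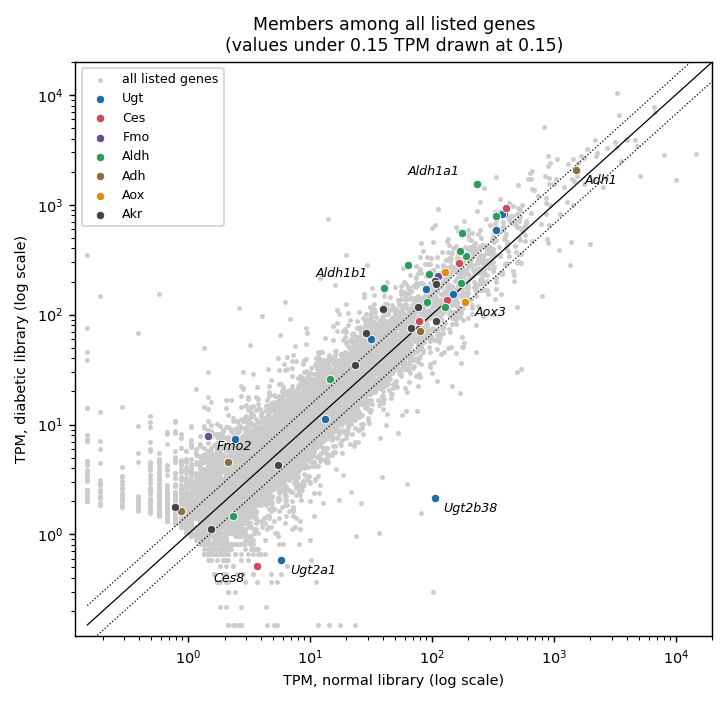
Level of each listed gene in the normal library (x axis) and in the diabetic library (y axis), in TPM on log scales, with 48 of the enzyme genes coloured by family, the solid line at equal levels and dotted lines at 1.5-fold. Ugt2b38 lies far below the line at 105.66 and 2.15 TPM, and Aldh1a1 lies above the line at 233 and 1550.1 TPM.

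Summed over the 49 genes, the level was 6695 TPM in normal and 12638 TPM in diabetic liver, a 1.89-fold difference (log2 ratio 0.92, 95% interval 0.90 to 0.93). The Aldh family had the steepest difference of the 7 sums, at 1719 and 4781 TPM, or 2.78-fold. Its share of the summed enzyme TPM was 25.7% in normal and 37.8% in diabetic liver. The Ugt sum was 1577 and 2724 TPM (1.73-fold). The sum of the 5 genes listed under a Ces symbol was 791 and 1452 TPM (1.83-fold), but with the 5 carboxylesterases under older symbols it was 3091 and 2664 TPM, a log2 ratio of -0.21 (95% interval -0.24 to -0.19), so the direction of this sum depends on the naming. The Akr sum was 568 and 897 TPM, a 1.58-fold difference. The Adh sum was 1608 and 2158 TPM, and at 1.34-fold it was nearer to the difference of 0.26 (log2) in the sum of all listed genes, with a log2 ratio of 0.42. The Aox sum, at 318 and 375 TPM, had a log2 ratio of 0.24 (95% interval 0.17 to 0.30), which was -0.01 under TMM scaling.

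**Figure D2:**
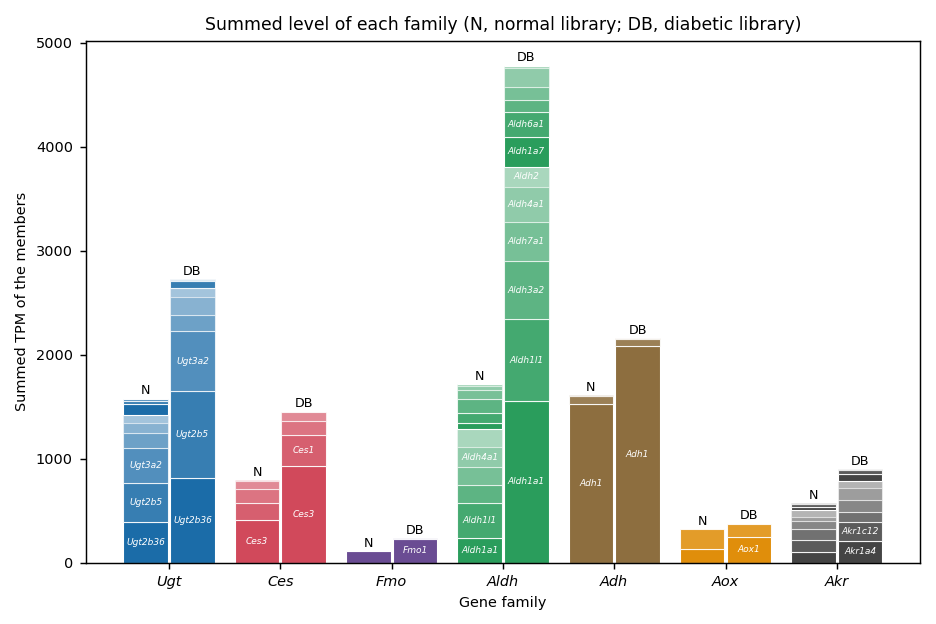
Summed TPM (y axis, linear from 0) of the 48 genes by family (x axis) in the normal (N) and diabetic (DB) library, with each bar divided by gene and the genes above 190 TPM named. The Aldh bar rises from 1719 to 4781 TPM, with Aldh1a1 as its lowest segment, while Adh1 fills nearly all of both Adh bars.

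The aldehyde dehydrogenases held 3 genes that were over 4-fold higher in diabetic liver, Aldh1a1, Aldh1a7 and Aldh1b1. Of the 13 Aldh genes, 9 were called higher, 0 lower and 4 were not called, with a median log2 ratio of 1.15. Of these 13, 12 averaged 10 TPM or more, where 34.6% of all listed genes were called higher and 11.4% lower. Aldh1a1 (Entrez 11668), the cytosolic enzyme that oxidises retinal to retinoic acid, had 2397 reads in normal and 20939 in diabetic liver. This corresponds to 233 and 1550.1 TPM, a 6.65-fold difference with a log2 ratio of 2.73 (95% interval 2.67 to 2.79). It was the 235th most abundant listed gene in normal and the 46th in diabetic liver, and its share of the Aldh sum was 13.6% and 32.4%. Aldh1a7 (Entrez 26358), its neighbour on the chromosome with a coding sequence identical at 91.7% of positions, had 652 and 3863 reads, or 63.4 and 286 TPM, a log2 ratio of 2.17 (95% interval 2.05 to 2.29). The single base between their predicted tags, shown above, is all that separates the tags of this pair. Taken as 1 unit, the pair summed to 297 TPM in normal and 1836 TPM in diabetic liver, 6.19-fold, a value that does not depend on how tags were split between them. Aldh8a1, which oxidises retinal and a tryptophan breakdown product, was at 129 and 116 TPM and was not called (log2 ratio -0.14, 95% interval -0.25 to -0.04).

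Among the enzymes of acetaldehyde and lipid aldehydes, the mitochondrial Aldh1b1 (Entrez 72535) had 420 reads in normal and 2363 in diabetic liver, a 4.28-fold difference (log2 ratio 2.10, 95% interval 1.95 to 2.25). Aldh2, the mitochondrial enzyme that clears acetaldehyde after ethanol, stood at 174 and 193 TPM. Its log2 ratio of 0.15 (95% interval 0.06 to 0.23) was not called and was -0.11 under TMM scaling. The 2 mitochondrial enzymes with the same substrate thus differed in their ratio by more than their counting intervals. Aldh3a2 (Entrez 11671), the fatty aldehyde dehydrogenase, was at 178 TPM in normal and 556 TPM in diabetic liver, 3.13-fold higher with a log2 ratio of 1.64 (95% interval 1.57 to 1.72). Aldh16a1, a member by its symbol and given no substrate here, was at 14.7 and 26.1 TPM. It was called higher with a log2 ratio of 0.83 (95% interval 0.55 to 1.11), but not under TMM scaling.

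Of the 5 Aldh genes that act on amino acid and polyamine aldehydes, 3 were called higher and 2 were not called. Among all listed genes averaging 10 TPM or more, 34.6% were called higher. Aldh6a1 (Entrez 104776), which acts in valine degradation, was at 95.3 and 236 TPM in normal and diabetic liver (log2 ratio 1.31, 95% interval 1.20 to 1.41). Aldh7a1 (Entrez 110695), which acts in lysine degradation, was at 170 and 377 TPM with a log2 ratio of 1.15 (95% interval 1.07 to 1.23). Aldh4a1, the last step of proline degradation, was at 192 and 341 TPM, and its log2 ratio of 0.83 (95% interval 0.75 to 0.91) became 0.58 under TMM scaling, just under the 1.5-fold threshold. Aldh9a1, an enzyme of carnitine synthesis, was at 91.1 and 132 TPM (log2 ratio 0.53, 95% interval 0.42 to 0.65). At 1.45-fold it fell short of the threshold on size, although its FDR in the exact test was 1.4e-19. Aldh18a1, which makes the precursor of proline and thus runs opposite to Aldh4a1, had 24 and 20 reads, too few to show a difference at this depth. Aldh1l1 (Entrez 107747), which oxidises formyltetrahydrofolate and so takes one-carbon units out of the folate pool, was at 336 and 792 TPM, 2.35-fold higher (log2 ratio 1.24, 95% interval 1.18 to 1.29).

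The alcohol dehydrogenases, which turn alcohols into aldehydes, were called in 0 of 4 cases. Among all listed genes, 22.9% were called higher and 8.19% lower. Adh1 (Entrez 11522), which oxidises ethanol and retinol, was the most abundant of the 49 enzymes in both libraries, with 15663 reads in normal and 28117 in diabetic liver. Its level of 1524 TPM was the 31st of all listed genes in normal and its 2081 TPM the 30th in diabetic liver. The log2 ratio of 0.45 (95% interval 0.42 to 0.48) had an exact test FDR of 1.7e-218, but at 1.37-fold it was not called. Adh4 was at 80.9 and 70.5 TPM (log2 ratio -0.20, 95% interval -0.33 to -0.06). Adh5 and Adh7 had 9 and 22 reads in normal and 22 and 61 in diabetic liver. Both were past 1.5-fold, with FDR values of 0.212 and 0.0043 in the exact test, so neither was called. Between Adh1 and Aldh1a1, which act in turn on retinol and retinal, the normal library held 1524 against 233 TPM and the diabetic library 2081 against 1550.1 TPM.

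The Ugt family held both directions at once. Of the 11 genes, 6 were called higher, 2 lower and 3 were not called. Of them, 9 averaged 10 TPM or more, where 34.6% of all listed genes were called higher and 11.4% lower. The most abundant Ugt genes were Ugt2b5 and Ugt2b36, which conjugate steroids and drugs, and both were higher in the diabetic library. Ugt2b5 (Entrez 22238) had 3839 reads in normal and 11221 in diabetic liver, a log2 ratio of 1.15 (95% interval 1.10 to 1.21). Ugt2b36 (Entrez 231396) had 3994 and 11021 reads, a log2 ratio of 1.07 (95% interval 1.02 to 1.12). As their predicted tags differ at 1 base, the near-equal counts of these genes cannot be taken as independent. Ugt2b1 and Ugt2a3 were at 89.3 and 31.5 TPM in normal and at 171 and 59.8 TPM in diabetic liver, with log2 ratios of 0.94 (95% interval 0.83 to 1.05) and 0.92 (0.74 to 1.11). Ugt2b37 had 25 and 100 reads and was called higher (log2 ratio 1.61, 95% interval 0.96 to 2.30). Ugt2b34 and Ugt2b35 were at 149 and 79.5 TPM in normal and at 154 and 87.4 TPM in diabetic liver, and their log2 ratios of 0.04 (95% interval -0.05 to 0.14) and 0.14 (0.01 to 0.27) were below 0 under TMM scaling. Ugt3a2 (Entrez 223337), which transfers sugars other than glucuronic acid, was at 338 and 585 TPM, and its log2 ratio of 0.79 (95% interval 0.73 to 0.85) was called higher, but not at 0.54 under TMM scaling.

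Ugt2b38 (Entrez 100559) stood apart from its relatives. It had 1086 reads in normal and 29 in diabetic liver, or 105.66 and 2.15 TPM, and was 49.2-fold lower with a log2 ratio of -5.62 (95% interval -6.21 to -5.09). In the normal library it ranked 541st of all listed genes, and in the diabetic library 7173rd. Its coding sequence was identical to that of Ugt2b5 at 97.0% of positions and to that of Ugt2b37 at 94.1%, yet both of those genes were called higher. Its predicted tag does not occur in either of them. Ugt2a1, known from the olfactory epithelium, was also lower, with 60 reads in normal and 8 in diabetic liver (log2 ratio -3.30, 95% interval -4.58 to -2.23). Ugt2a2 had 136 and 151 reads and was not called (log2 ratio -0.24, 95% interval -0.59 to 0.10). Since Ugt2a1 and Ugt2a2 have 1 predicted tag in common, the difference between them is uncertain.

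Along the chromosome, 10 of the 11 Ugt genes followed each other without another listed member between them, in the order Ugt2b34, Ugt2b1, Ugt2b35, Ugt2b36, Ugt2b5, Ugt2b37, Ugt2a3, Ugt2b38, Ugt2a1 and Ugt2a2 (RefSeq, GRCm38.p6). The 3 neighbours Ugt2b36, Ugt2b5 and Ugt2b37 and the next gene, Ugt2a3, were called higher, and the following Ugt2b38 and Ugt2a1 were called lower. The relation of position and direction was not tested. The plot of the run shows the levels in both libraries.

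**Figure D3:**
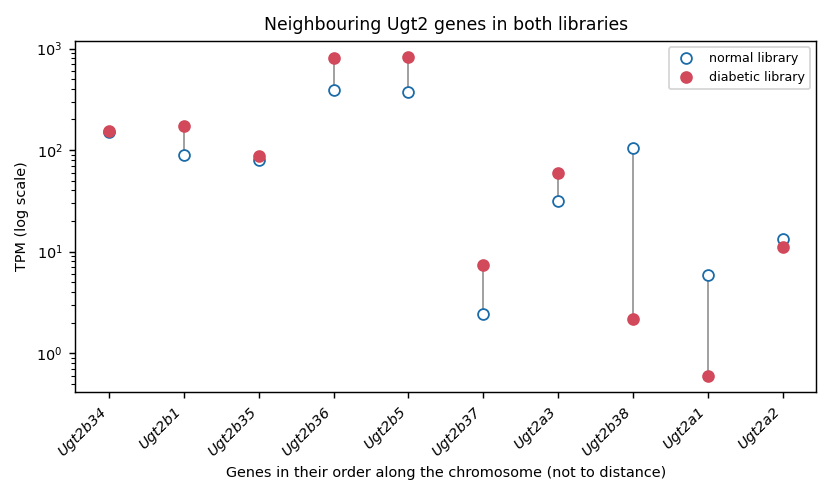
TPM on a log scale (y axis) of the 10 neighbouring Ugt2 genes in their order along the chromosome, not to distance (x axis), with open circles for the normal and filled circles for the diabetic library. Ugt2b36 and Ugt2b5 are at 389 and 373.5 TPM in normal and at 816 and 831 TPM in diabetic liver, while Ugt2b38 is at 105.66 and 2.15 TPM.

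The bases upstream of the start of Ugt2b38 and Ugt2b5 are shown because these genes are the closest pair in coding sequence and were called in opposite directions. Over the RefSeq promoter windows, 250 bases before to 50 after the start, their sequences were identical at 84.2% of aligned positions. The capitals mark AGGTCA, the core sequence read by several nuclear receptors, and both sequences are on the minus strand of GRCm38.p6, given 5′ to 3′ up to the base before the start.
Ugt2b38, chr5:87424204-87424453: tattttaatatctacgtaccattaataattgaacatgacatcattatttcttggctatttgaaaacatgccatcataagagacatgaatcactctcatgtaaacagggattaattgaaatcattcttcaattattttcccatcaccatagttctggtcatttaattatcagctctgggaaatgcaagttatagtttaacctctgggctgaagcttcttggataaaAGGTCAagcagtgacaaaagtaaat
Ugt2b5, chr5:87140341-87140590: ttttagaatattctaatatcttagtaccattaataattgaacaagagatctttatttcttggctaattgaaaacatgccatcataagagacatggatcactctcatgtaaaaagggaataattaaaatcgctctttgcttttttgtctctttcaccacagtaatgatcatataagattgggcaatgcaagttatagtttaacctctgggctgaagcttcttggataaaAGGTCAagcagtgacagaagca
This core lies 25 bases before the start in Ugt2b38 and in Ugt2b36, 22 in Ugt2b5 and 39 in Ugt2b37. In Ugt2b35, which was not called, it lies 215 bases before the start. The windows of Ugt2b1 and Ugt2a3, called higher, and of Ugt2a1, called lower, did not hold it. AGGTCA was found in the window of 14 of the 41 enzyme genes with a promoter in the table (34.1%) and of 18.1% of all genes in the table, on either strand. Of the 20 such enzyme genes called higher, 6 had it. Its relation to the calls was not tested. The Ugt2b genes are relatives, so their windows are not independent of each other. The motif TGACNNNGC, the core read by Nrf2, was found in 4.88% of the enzyme genes and 14.0% of all genes. GCGTG, the core read by the Ah receptor, was found in 26.8% and 35.2%, and TTCNNNGAA, the core read by STAT proteins, in 12.2% and 9.55%, in the same order. Each motif was searched on both strands, and the nuclear receptor core read on the other strand opens with the same 4 bases as the Nrf2 core, so that a stretch can match both. A match is a run of letters in this window and no measurement of binding.

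The 5 genes listed under a Ces symbol comprised 2 called higher, 1 called lower and 2 not called. Of these 5, 4 averaged 10 TPM or more, where 34.6% of all listed genes were called higher and 11.4% lower. Ces3 (Entrez 104158, now named Ces1d), a triacylglycerol hydrolase of the endoplasmic reticulum, was at 409 TPM in normal and 932 TPM in diabetic liver, with 4202 and 12593 reads (log2 ratio 1.19, 95% interval 1.14 to 1.24). Ces1 (Entrez 12623, now Ces1g), a relative that lies near it on the chromosome, was at 166 and 297 TPM, a log2 ratio of 0.84 (95% interval 0.76 to 0.92). Ces6 and Ces5, now Ces2a and Ces2e, also lie near each other and were not called. Ces6 was at 134.46 and 134.81 TPM (log2 ratio 0.00, 95% interval -0.10 to 0.11) and Ces5 at 78.5 and 87.4 TPM (log2 ratio 0.15, 95% interval 0.02 to 0.28), and both were below 0 under TMM scaling. Ces8 (Entrez 234677, now Ces4a) was lower, with 38 reads in normal and 7 in diabetic liver and a log2 ratio of -2.83 (95% interval -4.24 to -1.65). The 5 carboxylesterases under older symbols went both ways. Gm4738 (Entrez 13909, now Ces3b) was at 1096 TPM in normal and 390 TPM in diabetic liver, a log2 ratio of -1.49 (95% interval -1.54 to -1.44), and Es31 (Entrez 382053, now Ces3a) at 898 and 447 TPM, a log2 ratio of -1.01 (95% interval -1.05 to -0.96). Both were called lower, and each was above every gene with a Ces symbol in normal liver. Es22 (now Ces1e) was called higher at 60.5 and 139 TPM (log2 ratio 1.20, 95% interval 1.07 to 1.34), as was 2210023G05Rik (now Ces2g) at 25.3 and 39.5 TPM, whose log2 ratio of 0.64 (95% interval 0.43 to 0.86) was not called at 0.39 under TMM scaling. AU018778 (now Ces1f), at 220 and 196 TPM, was not called (log2 ratio -0.16, 95% interval -0.24 to -0.08). Over all 10 carboxylesterases, 4 were called higher, 3 lower and 3 were not called.

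The flavin monooxygenases Fmo1 and Fmo2 lie near each other on the chromosome, and both were called higher. Fmo1 (Entrez 14261) was at 112 TPM in normal and 225 TPM in diabetic liver, with 1153 and 3042 reads, 2.01-fold higher (log2 ratio 1.01, 95% interval 0.91 to 1.10). Fmo2, known as the lung form, had 15 and 107 reads, or 1.46 and 7.92 TPM (log2 ratio 2.44, 95% interval 1.65 to 3.33). It stayed far below Fmo1 in both libraries. As the deposited table holds genes averaging 1 TPM or more, a low gene can be listed through 1 library alone. Ugt2a1 and Ces8 were under 1 TPM in diabetic liver, and Adh5 and Akr1b7 were under 1 TPM in normal liver.

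The 2 aldehyde oxidases are neighbours and exchanged rank. Aox1 (Entrez 11761) was at 129 TPM in normal and 245 TPM in diabetic liver, a log2 ratio of 0.92 (95% interval 0.83 to 1.01), and was called higher. Aox3 (Entrez 71724), found mainly in liver, was at 189 and 130.2 TPM, a log2 ratio of -0.54 (95% interval -0.63 to -0.44). At 1.45-fold lower it was not called under the deposited scaling, but it was called lower under TMM scaling at -0.79. Aox1 made up 40.7% of the Aox sum in normal and 65.3% in diabetic liver. This shift within the pair does not depend on the scaling between libraries.

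The aldo-keto reductases comprised 5 genes called higher, 0 lower and 6 not called. Of these 11 genes, 8 averaged 10 TPM or more, where 34.6% of all listed genes were called higher and 11.4% lower. The 5 Akr1c genes, which reduce ketosteroids and other carbonyls, lie in 1 run and all had log2 ratios above 0 under the deposited scaling. Akr1c19 (Entrez 432720) had the highest ratio of them, at 39.5 TPM in normal and 113 TPM in diabetic liver (log2 ratio 1.52, 95% interval 1.36 to 1.68). Akr1c20 was at 29.1 and 67.5 TPM (log2 ratio 1.21, 95% interval 1.02 to 1.41). The near-identical pair Akr1c12 and Akr1c13, 96.2% identical in coding sequence, was at 109 and 76.8 TPM in normal and at 191 and 118 TPM in diabetic liver. Their log2 ratios of 0.81 (95% interval 0.70 to 0.91) and 0.62 (0.49 to 0.74) were called, though not under TMM scaling (0.55 and 0.37). Their predicted tags differ, but that of Akr1c12 lies in Akr1c13 transcripts with 1 mismatch, so the counts of the pair may not be wholly separate. Akr1c14, a 3-alpha-hydroxysteroid dehydrogenase, was at 67.8 and 75.4 TPM and was not called. Its log2 ratio was 0.15 (95% interval 0.01 to 0.29) and lay below 0 under TMM scaling.

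Among the reductases of sugars and aldehydes, 1 of 6 was called, beside 22.9% called higher and 8.19% lower over all listed genes. Akr1a4 (Entrez 58810, now Akr1a1), which reduces glucuronate on the way to vitamin C, was at 106 TPM in normal and 203 TPM in diabetic liver (log2 ratio 0.95, 95% interval 0.84 to 1.05). Akr1e1, at 23.6 and 35.02 TPM, differed 1.48-fold and was just short of the threshold (log2 ratio 0.57, 95% interval 0.34 to 0.80). Akr7a5, which reduces succinic semialdehyde and aflatoxin dialdehyde, was at 109 and 87.1 TPM (log2 ratio -0.32, 95% interval -0.44 to -0.20). Akr1b3, the aldose reductase that turns glucose into sorbitol, had 56 reads in normal and 58 in diabetic liver. The log2 ratio was -0.34 (95% interval -0.90 to 0.21), which, for counting error alone, leaves out a 1.5-fold increase. Akr1b7 and Akr1b10 had between 8 and 24 reads in each library, and no difference was detectable at this depth.

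**Figure D4:**
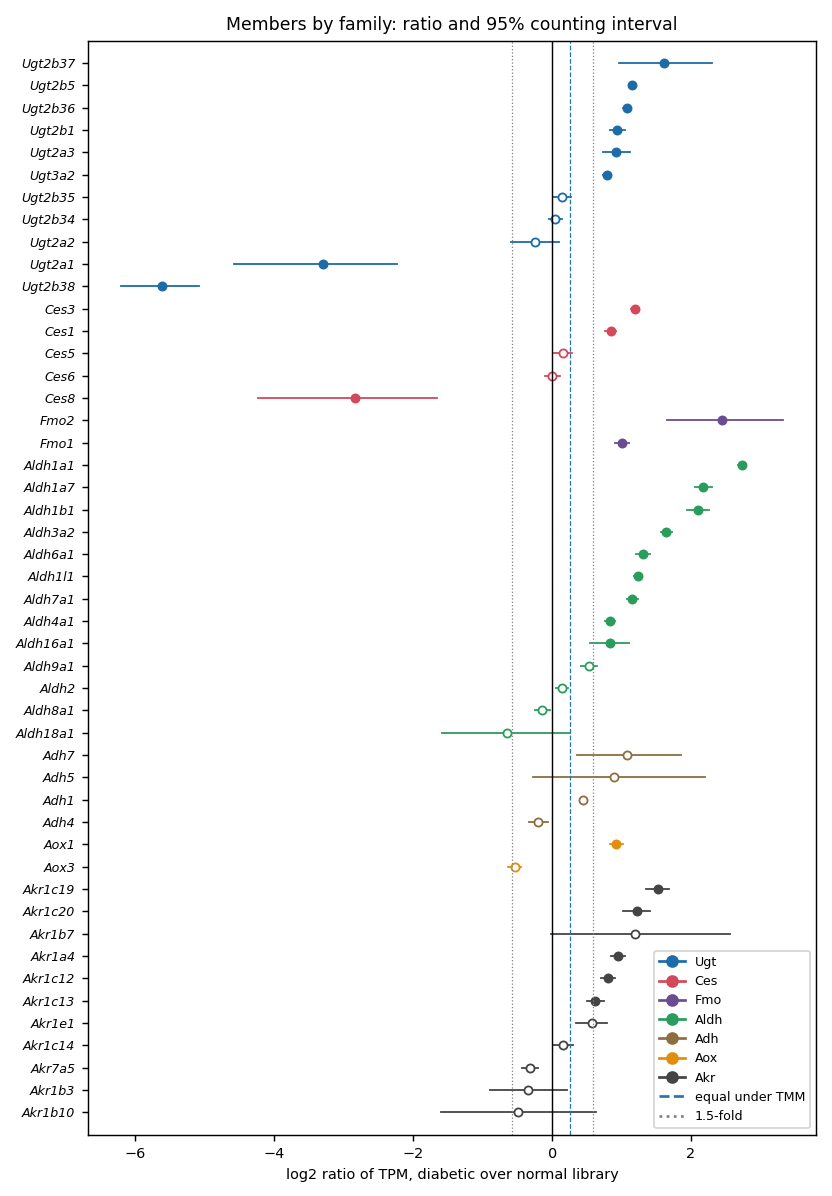
Log2 ratio of TPM, diabetic over normal library (x axis), of 48 of the genes (y axis, ordered by ratio within family), with 95% counting intervals as bars, filled points for genes called and open points for genes not called. The dashed line at 0.25 marks equality under TMM scaling, and the ratios run from -5.62 for Ugt2b38 to 2.73 for Aldh1a1.

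Of the 20 genes not called, 5 had an FDR under 0.001 in the exact test but differed less than 1.5-fold (Adh1, Aldh9a1, Akr1e1, Aox3 and Akr7a5). A further 4 differed at least 1.5-fold with too few reads to pass the FDR (Adh5, Adh7, Akr1b7 and Aldh18a1). Enzymes called higher were found in 6 of the 7 families, and the 3 called lower in Ugt and Ces. With 22.9% of all listed genes called higher and 8.19% lower, calls in several families carry little weight, and their spread was not tested. Of the 3, Ugt2a1 and Ces8 were under 1 TPM in diabetic liver and are in the table through the normal library alone. They had to be lower, so they say nothing about their families. In the same way, a gene listed through the diabetic library alone had to be higher, so the count called higher is not free of this filter. Of the 38 genes averaging 10 TPM or more, 0 were under 1 TPM in either library. Over the 39 genes averaging 5 TPM or more, 1 was called lower.

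Genes that supply or assist these enzymes, with some that serve other enzymes, were described by lists. Glucuronidation needs UDP-glucuronic acid, which Ugdh makes from UDP-glucose. Ugdh had 688 reads in normal and 3123 in diabetic liver, a log2 ratio of 1.79 (95% interval 1.67 to 1.91). Gusb, the lysosomal enzyme that removes glucuronic acid, was at 9.63 and 21.8 TPM (log2 ratio 1.18), and Slc35b1, a nucleotide transporter of the endoplasmic reticulum, was lower at 35.5 and 21.3 TPM (log2 ratio -0.74). Of 6 listed genes of glucuronic acid supply and removal, all averaging 10 TPM or more, 2 were called higher and 1 lower, where 34.6% and 11.4% of all listed genes at that level were called. Among the electron donors and molybdenum cofactor genes, 3 of 11 were called higher and 0 lower, with 1 called lower under TMM scaling, a count near the 22.9% called higher over all listed genes. Por, which carries electrons from NADPH to the cytochrome P450 enzymes, was at 19.9 and 124 TPM (log2 ratio 2.64, 95% interval 2.43 to 2.86). Mocos, which sulfurates the cofactor of the aldehyde oxidases, was at 15.4 and 28.7 TPM (log2 ratio 0.90), and Suox, another molybdenum enzyme, at 40.5 and 100.01 TPM (log2 ratio 1.31).

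Other conjugating enzymes were listed as well. Of 11 listed sulfotransferase and sulfate donor genes, 8 were called higher and 1 lower, beside 22.9% and 8.19% over all listed genes. Under TMM scaling the counts were 6 and 1, beside 14.9% and 13.4%. Of the 8, 4 (Sult2a2, Sult1e1, Sult2a1 and Sult3a1) were under 1 TPM in normal liver and are in the table through the diabetic library alone, so they had to differ and this count supports nothing about the list. It also lacks 2810007J24Rik (now Sult2a8), at 434 and 344 TPM (log2 ratio -0.33), which was not called, but was called lower under TMM scaling. Sult2a2 had 2 reads in normal and 2000 in diabetic liver, a log2 ratio of 9.57 with a broad 95% interval of 7.72 to 12.6. Sult1e1, the estrogen sulfotransferase, had 0 and 1015 reads and was at least 257-fold higher, and Sult2a1 had 0 and 190 reads and was at least 48.2-fold higher. Sult5a1, named as the 1 lower gene, had 112 and 32 reads. Of 13 listed genes of methylation, acetylation and amino acid conjugation, 7 were called higher and 1 lower, with a median log2 ratio of 1.26, beside 22.9% and 8.19% over all listed genes. Of these 13, 11 averaged 10 TPM or more, where 34.6% of all listed genes were called higher and 11.4% lower. Comt1, the catechol methyltransferase, was the 1 lower gene, at 1975 TPM in normal and 439 TPM in diabetic liver (log2 ratio -2.17, 95% interval -2.21 to -2.13). Gnmt and Nnmt, which use S-adenosylmethionine to methylate glycine and nicotinamide, were at 250.3 and 80.7 TPM in normal and at 1068 and 335 TPM in diabetic liver.

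Other hydrolases and carbonyl enzymes outside the 7 families were described in the same way. Of 12 listed hydrolases, 4 were called higher and 0 lower, near the 34.6% called higher among all listed genes of at least 10 TPM, with a median log2 ratio of 0.24 that was -0.02 under TMM scaling. The largest ratios among them were those of Ephx1 (microsomal epoxide hydrolase, 1.37), Bche (butyrylcholinesterase, 1.29) and Lypla2 (1.06). Of 20 listed carbonyl and retinal reductases and dehydrogenases, 10 were called higher and 2 lower (8 and 2 under TMM scaling), beside 34.6% and 11.4% of all listed genes of at least 10 TPM. Nqo1, the quinone reductase, had 28 reads in normal and 304 in diabetic liver (log2 ratio 3.05, 95% interval 2.49 to 3.66). Maob was at 33.9 and 111 TPM (log2 ratio 1.72), and Sdr9c7 was lower at 37.6 and 7.48 TPM (log2 ratio -2.33).

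Receptors known to control these enzyme genes were listed last. Of 13 listed xenobiotic receptors and partners, 5 were called higher and 1 lower, against 3 and 3 under TMM scaling. The shares over all listed genes were 22.9% and 8.19%, and 14.9% and 13.4% under TMM scaling. Of the 13 genes, 10 averaged 10 TPM or more, where 34.6% of all listed genes were called higher and 11.4% lower. A difference of the list from these shares was not tested. Nr1i3 (CAR), the receptor that answers to phenobarbital, was at 32.5 TPM in normal and 176 TPM in diabetic liver (log2 ratio 2.44, 95% interval 2.27 to 2.61). Nfe2l2 (Nrf2), the regulator of the response to electrophiles, was at 33.4 and 151 TPM (log2 ratio 2.18, 95% interval 2.02 to 2.35). Ppara, the receptor for fatty acids, was at 36.6 and 82.1 TPM (log2 ratio 1.17). Hnf4a, which maintains hepatocyte gene expression and is named as the 1 gene called lower, was at 96.8 and 46.2 TPM (log2 ratio -1.07, 95% interval -1.21 to -0.92). Whether these transcript levels have a part in those of the enzymes was not tested.

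**Figure D5:**
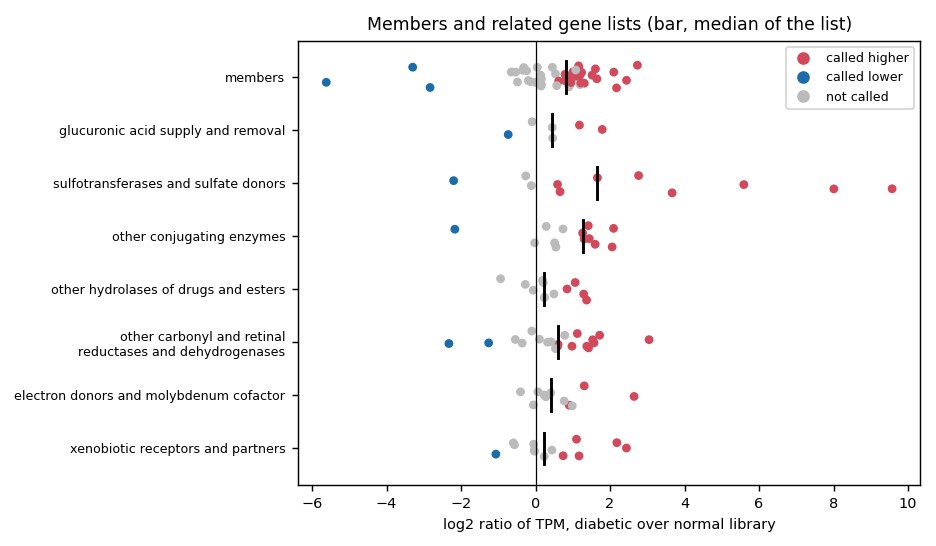
Log2 ratio of TPM, diabetic over normal library (x axis), of 48 of the enzyme genes and of the listed genes of 7 related lists (y axis), coloured by call, with a bar at the median of each list and genes without a read in the normal library drawn at their lower bound. The median is 0.83 for the enzymes and 0.23 for the xenobiotic receptors, and 4 of the sulfotransferases are in the table through the diabetic library alone.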

How the data were processed

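Per the labels, liver poly(A) RNA of 1 normal and 1 diabetic library was profiled with DpnII digital gene expression tags. The authors removed adaptors, kept clean tags, compared them with RefSeq and deposited, for each gene, tags per 1000000 clean tags (an RPM value, which they call TPM), rounded and with 0.01 TPM in place of 0. Genes averaging under 1 TPM were left out, and the smallest mean was 1.005 TPM. The submitters' processing notes name the build mm9. The aligner, the mismatches allowed and the counting of tags common to several genes are not given in the sources used here. No per-sample column was left unused, and the series holds no other value type.

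Reads were recovered from the equal steps between deposited values: 8511 of 8513 values in the normal and 8536 of 8537 in the diabetic library were whole within 0.005 TPM. The 38 and 14 placeholders were taken as 0 reads, and the ratio of a gene at 0 was formed with 3 reads in its place. A two-sided exact binomial test compared the reads of each gene given both library sizes, and p-values were adjusted by Benjamini-Hochberg over 8551 genes; called means at least 1.5-fold and an FDR under 0.001. Intervals are 95% Clopper-Pearson and cover counting error only, since the tags carry no molecular identifiers and are not independent. Simulated libraries with known fold changes were used to test the method.

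Alternatives were TMM scaling (30% of ratios and 5% of abundances trimmed), median-ratio scaling over genes of at least 10 TPM, a pseudocount of 1 TPM, a mean of at least 5 TPM, a 2-fold threshold and no FDR. The values of 1 member are not reported here; counts, medians and sums include it, and the plots leave it out. Every other member that was called or averaged at least 10 TPM is given with its values, with up to 3 called genes per related list. Sult5a1 and Hnf4a, the single genes called lower in their lists, 2810007J24Rik and the 5 carboxylesterases under older symbols were named after their values were seen. The same holds for the single cell type markers other than Alb. The members and lists were chosen with earlier results of these data known. Of the Entrez identifiers, 8317 of 8551 and 49 of 49 members matched the RefSeq table of GRCm38.p6, 6 members under a newer symbol. The RefSeq table was used for names and neighbours only, and other genes can lie between genes called neighbours. Tags and coding identities came from GENCODE M21 transcripts and promoters from RefSeq, both GRCm38. Protein sequences were not used here. The computation used scipy 1.17.1, numpy 2.4.6, pandas 2.3.3, Biopython 1.88 and matplotlib 3.10.9 under Python 3.11.15.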

Additional observations from a re-analysis of the deposited data

How the results depend on the processing

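The counts of 26 genes called higher and 3 lower became 21 and 4 under TMM scaling and 20 and 5 under median-ratio scaling, which lowered each log2 ratio by 0.25 and 0.31. The median log2 ratio was 0.58 and 0.52 under these scalings. With a pseudocount of 1 TPM the counts were 26 and 3, and over the 39 genes averaging 5 TPM or more 24 and 1. At a 2-fold threshold they were 16 and 3. Without the FDR they were 29 and 4, beside 2941 and 1309 of all 8551 listed genes. Shares over all listed genes were not computed for the median-ratio, pseudocount, 5 TPM and 2-fold settings. Those counts thus cannot be set against all listed genes. Log2 ratios of the family sums under TMM and median-ratio scaling were 0.54 and 0.48 for Ugt, 0.62 and 0.57 for Ces, 0.89 and 0.83 for Fmo, 1.22 and 1.17 for Aldh, 0.17 and 0.12 for Adh, 0.41 and 0.35 for Akr, and -0.014 and -0.067 for Aox, which changed sign. Among the single genes, 6 changed sign under both scalings: Ugt2b34 (-0.21 and -0.26), Ugt2b35 (-0.11 and -0.17), Ces5 (-0.10 and -0.15), Ces6 (-0.25 and -0.30), Aldh2 (-0.11 and -0.16) and Akr1c14 (-0.10 and -0.15). Calls lost under TMM scaling were those of Ugt3a2, Aldh4a1, Aldh16a1, Akr1c12 and Akr1c13, and Ces1 under median-ratio scaling as well. Calls gained were lower calls, of Aox3 under both and of Akr7a5 under median-ratio scaling. These shifts follow from the construction of the scalings.

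Chosen after seeing the data, leaving out the 5 genes whose predicted tag also lies in another gene gave 24 higher and 2 lower of 44. Leaving out the 12 with at most 1 mismatch gave 18 and 2 of 37, with a median of 0.83. Adding the 5 carboxylesterases listed under older symbols gave 28 higher and 5 lower of 54 with a median of 0.82, and turned the log2 ratio of the Ces sum to -0.21. No paired analysis was possible because each group had 1 library, and for the same reason no library could be left out. Counting error was wide for Adh5, Akr1b7, Akr1b10 and Aldh18a1, which had 8 to 24 reads per library.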
